A study of Mus musculus with 61 samples.

Results

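Del(CBS4) is a line of mouse embryonic stem cells that lacks CBS4, the fourth of the CTCF binding sites inside the HoxD cluster. RNA of its stembryos was compared gene by gene, over the whole genome, with RNA of wild-type stembryos of the same stage. The comparison used 11 of the 61 libraries of the study. At 120 h these were Del(CBS4) replicates 1 and 2 against 3 wild-type libraries, namely replicate 4 of the wild-type libraries outside the time course and replicates 1 and 2 of the time course. At 144 h they were Del(CBS4) replicates 1 and 2 against 4 wild-type libraries, replicates 1 and 2 outside the time course and replicates 1 and 2 of the time course. The libraries were chosen because all 11 list mt-Co2 and mt-Co3, both encoded by the mitochondrial genome, at low levels, between 0.447 and 2.57 FPKM, whereas the other wild-type libraries at 120 h do not.

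Stembryos, also called gastruloids, are aggregates of embryonic stem cells that receive a pulse of a Wnt agonist and then elongate in culture. Both genotypes received it. The wild-type cells are a 129/SVEV line and the mutant was made from it by CRISPR/Cas9. The site is mutated on both alleles, and the sequences that the study lists for these alleles differ. A mutant line grown from edited cells can differ from its parent by more than the deletion, and effects of the clone and of the deletion cannot be told apart with 1 line. Each library was made from pooled stembryos. From 108 h onwards only elongating aggregates without signs of cell death were collected, so the values describe stembryos that had passed this choice. The study's methods state that replicates are biological. The labels do not say whether they are separate cultures, and where they are not, the p-values measure only the spread between these libraries, which may be technical.

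CTCF is a DNA-binding protein that halts the extrusion of chromatin loops by cohesin, and its sites in the HoxD cluster divide active from inactive parts of it. Elongating stembryos contain neuromesodermal progenitors, which give rise to spinal cord on one side and to presomitic mesoderm and somites on the other, beside smaller numbers of endodermal, endothelial and cardiac cells. In bulk RNA a lower level of a marker can come from fewer cells of a type or from less RNA per cell, and these cannot be told apart here.

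At 120 h the Del(CBS4) libraries had higher levels of spinal cord genes, among them Irx3 and Irx5, and lower levels of genes of the sclerotome (Pax1), of endoderm and other epithelia (Cldn6, Krt19, Foxa2, Cdh1), of basement membrane (Col4a1, Lamb1) and of the imprinted genes Grb10 and Dlk1. At 144 h most of these levels lay much nearer to the wild type, except those of Grb10 and Dlk1, which were lower at both stages. Of 12714 genes tested with limma on log2(FPKM + 0.1), 338 (2.66%) were past an adjusted p of 0.05 at 120 h (Benjamini-Hochberg). Of these, 75 (0.590% of the genes tested) rose and 263 (2.07%) fell. At 144 h 8 genes (0.0629%) were past the threshold, 4 in each direction (0.0315% each). At an unadjusted p under 0.05, 6.30% of the genes were higher and 11.6% lower at 120 h, and 5.71% higher and 5.01% lower at 144 h.

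FPKM are fragments per kilobase of transcript, scaled by the authors to the total of mapped fragments. The depth of the libraries, inferred from the steps that single fragments make at low FPKM and given in units of 1e6 fragments, was 27.7 to 30.8 for Del(CBS4) at 120 h and 21.3 to 23.4 for its controls, and 28.1 to 31.6 against 15 to 25.4 at 144 h. The median difference over all genes tested was -0.03 on the log2 scale at 120 h and 0.00 at 144 h. The calls at 120 h rest heavily on single libraries. Without Del(CBS4)_120h replicate 2, 43 genes were past the threshold, 23 of them higher and 20 lower, so that the excess of falling genes was lost, and 21 of the 338 remained among them. Those 21 remained past it with each of the 11 libraries left out in turn, and every other gene of the 338 lost its call at least without that library. No gene of the 338 changed sign in any of these 11 fits. Both Del(CBS4) libraries lay above all 3 controls in 14.4% of the genes tested and below them in 22.2%, which is the background for the counts of such genes given for each list.

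**Figure D1:**
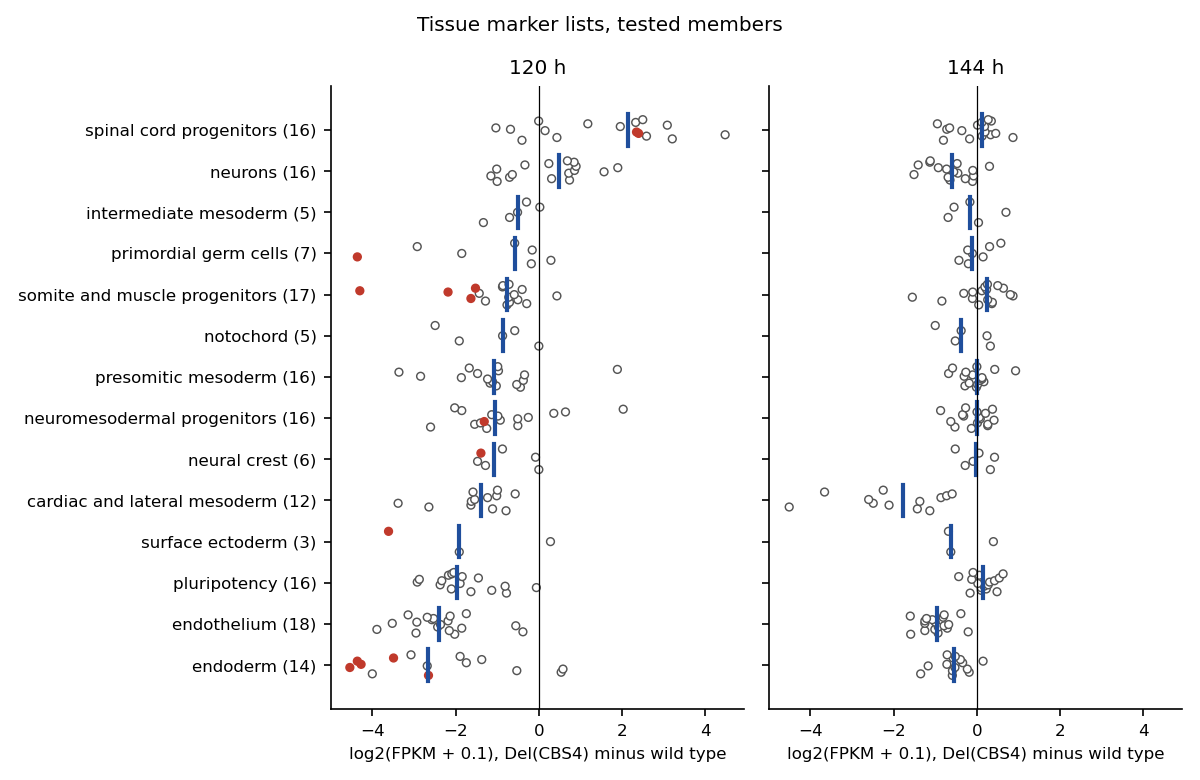
Each point is a tested member of a tissue marker list, placed at its log2 difference between Del(CBS4) and wild type on log2(FPKM + 0.1) at 120 h (left) and 144 h (right), with red points past an adjusted p of 0.05 and blue bars at the list medians. At 120 h the median was 2.14 for 16 spinal cord genes and -2.66 for 14 endoderm genes, and at 144 h it was 0.12 and -0.55.

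Spinal cord progenitors are the neural cells that line the tube and are patterned by homeodomain factors. Of the 16 tested genes of this list 2 rose, none fell, and 10 lay above all controls, with a median log2 difference of 2.14. This median was 0.92 with controls outside the time course only, at 120 h wild-type replicate 4 alone. The members were not uniform, since 4 of them had negative differences. Olig2, a factor of ventral progenitors, lay below all controls (-1.03, adjusted p = 0.398), while Nkx6-1, likewise ventral (-0.68), Fabp7 (-0.40) and Zic2 (close to 0) overlapped them. Nkx6-1, Fabp7 and Zic2 were singled out after their values were seen. Irx3 (ENSMUSG00000031734, chr8:91798525-91802067, minus strand, mm10) is a homeodomain factor of the intermediate neural tube. Its level was 37.2 and 54.8 FPKM in the Del(CBS4) libraries, 11.3 FPKM in wild-type replicate 4, and 4.67 and 11.6 FPKM in the time-course replicates. The mutant libraries lay well above all controls, which among themselves spread by more than a factor of 2. The log2 difference was 2.40 (SE 0.36, adjusted p = 0.0195, limma). For Irx5 (ENSMUSG00000031737, chr8:92357625-92376286, plus strand), its neighbour in the same gene cluster, the mutant libraries had 7.55 and 12.1 FPKM, replicate 4 had 2.17 FPKM and the time course 1.29 and 2.05 FPKM. The groups did not overlap, and Irx5 rose by 2.35 (SE 0.25, adjusted p = 0.00721, limma), the only gene above 0 in all 11 libraries that rose and remained past the threshold with each library left out. Its log2 difference then lay between 2.01 and 2.69. Irx3 lost its call without Del(CBS4)_120h replicate 2 or either Del(CBS4)_144h library, with adjusted p up to 0.193 and log2 differences between 1.97 and 2.67.

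Further neural genes did not pass the threshold. Dbx1, a factor of ventral interneuron progenitors, was at 14.7 and 39.4 FPKM in Del(CBS4) against 3.17, 0.266 and 0.974 FPKM in the controls (log2 difference 4.48, SE 0.99, adjusted p = 0.0555, limma). Dbx2 was at 1.47 and 2.69 FPKM against 0.438, 0.0388 and 0.0995 FPKM (adjusted p = 0.0559). Sox2, of the neuromesodermal list and also active in neural progenitors, was at 80.2 and 108 FPKM against 32.4, 9.13 and 39.7 FPKM (log2 difference 2.03, adjusted p = 0.0824). All 3 genes were higher in both mutant libraries than in every control. No neuronal gene was past the threshold, the list's median was 0.50, and 6 of its 16 tested genes lay above all controls and 2 below.

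Of the 12 annotated genes with the largest rise, Rad9a and Ncoa3 were listed at 0 in all controls and are described further on. Of the others, Pkd2l1, a channel of neurons that contact the cerebrospinal fluid, was at 3.47 and 4.16 FPKM against 0.214, 0.176 and 0.579 FPKM and rose by 3.33 (SE 0.60, adjusted p = 0.0305). All its controls at 120 h were under 1 FPKM. Foxe3, known from the lens (3.46, adjusted p = 0.0347), Pnoc, a neuropeptide precursor (2.58, 0.0360), Wnt4, a secreted Wnt ligand (2.55, 0.0429), Pantr1, a long non-coding RNA (2.49, 0.0305), Fgfr3, an FGF receptor (2.47, 0.0483), and Btbd17 (2.31, 0.0356) also rose. Of these genes and Irx3, Irx5 and Pkd2l1, only Irx5 remained past the threshold in all 11 fits. Irx3 was past it in 8, Pkd2l1 and Pantr1 in 6, Btbd17 in 4, Pnoc and Fgfr3 in 3, Wnt4 in 2 and Foxe3 in 1, that without time-course replicate 2 at 120 h.

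**Figure D2:**
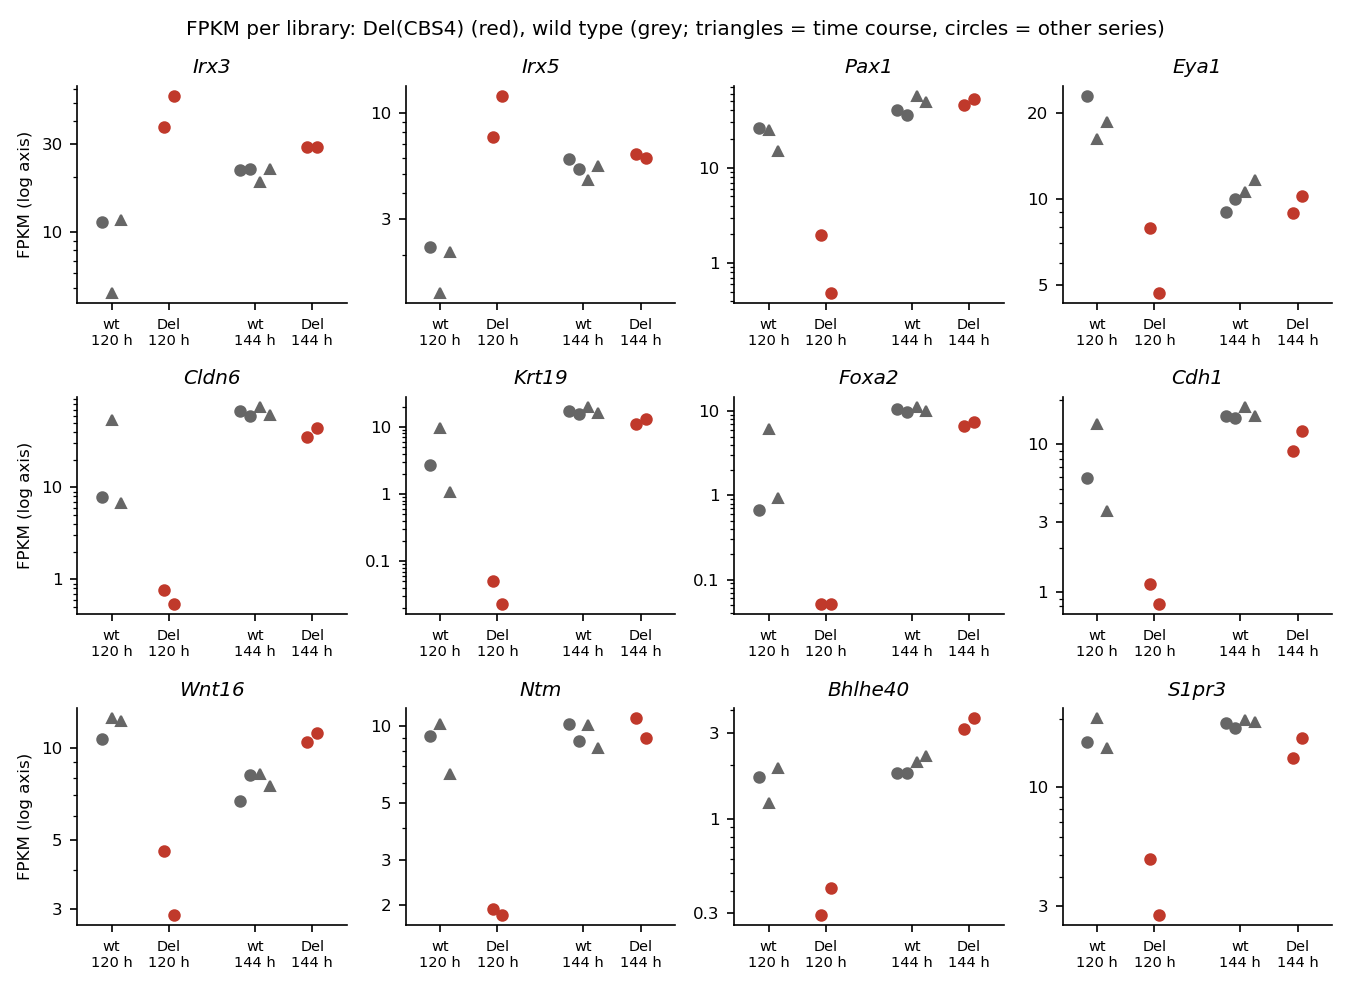
FPKM of 12 genes in each of the 11 libraries on log axes, with Del(CBS4) in red, wild type in grey and time-course libraries as triangles. At 120 h the red points lie above all controls for Irx3 and Irx5 and below them for the other 10 genes, and at 144 h they lie much nearer to the controls, still above them for Irx3 and Irx5, now above them for Wnt16 and Bhlhe40, below them for Cldn6, Krt19, Foxa2, Cdh1 and S1pr3, and overlapping them for Pax1, Eya1 and Ntm.

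Somite genes mark the mesodermal segments that form cartilage, dermis and muscle. Of 17 tested genes 4 fell and none rose, and 9 lay below all controls. The list's median was -0.76. Pax1 (ENSMUSG00000037034, chr2:147361925-147375053, plus strand), a paired-box factor of the sclerotome from which vertebrae form, was at 1.96 and 0.483 FPKM in Del(CBS4). The controls had 26.4 FPKM in replicate 4 and 25.1 and 15.0 FPKM in the time course. No library of one genotype came near the other, and Pax1 fell by 4.30 (SE 0.48, adjusted p = 0.00773, limma), between 3.39 and 5.21 with single libraries left out. At 144 h it stood at 45.1 and 52.1 FPKM in the mutant and at 39.9, 35.7, 56.8 and 48.6 FPKM in the controls, and the groups overlapped. The time course shows when Pax1 comes on in wild-type stembryos, at 0.365 and 0.398 FPKM at 108 h, 25.1 and 15.0 FPKM at 120 h and 30.5 and 43.0 FPKM at 132 h. The level of Pax1 in the mutant at 120 h thus lay between those of the wild type at 108 h and at 120 h. Irx3 and Irx5 were placed otherwise, with mutant levels at 120 h above those of the time course at 132 h and at 144 h. Irx3 was there at 27.1 and 14.9 FPKM and at 18.6 and 21.9 FPKM, and Irx5 at 5.2 and 3.08 FPKM and at 4.67 and 5.49 FPKM. By 168 h the time course reached 56.9 and 46.8 FPKM for Irx3 and 15.6 and 14.9 FPKM for Irx5. The part of stage in these levels was not tested.

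Eya1, a transcriptional cofactor of muscle and sensory precursors, was at 7.90 and 4.69 FPKM against 23.0, 16.3 and 18.7 FPKM and fell by 1.63 (SE 0.23, adjusted p = 0.0141). Meox2, a homeobox factor of the somite, was at 5.45 and 2.82 FPKM against 11.8, 28.0 and 17.9 FPKM and fell by 2.18 (SE 0.42, adjusted p = 0.0364). Nkx3-2, which acts after Pax1 in the sclerotome, was at 0.509 and 0.271 FPKM against 1.11, 1.10 and 1.66 FPKM and fell by 1.52 (SE 0.26, adjusted p = 0.0259). In each case both mutant libraries lay below all controls, with replicate 2 the lower. Eya1 was past the threshold in 10 of the 11 fits, Nkx3-2 in 8 and Meox2 in 1.

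Of 16 genes of neuromesodermal progenitors, the cells of the elongating tip, 1 fell and 9 lay below all controls. The 1 that fell was Cyp26a1, the enzyme that degrades retinoic acid at the tail end, which was at 6.17 and 3.86 FPKM against 13.5, 8.87 and 15.5 FPKM (log2 difference -1.31, SE 0.25, adjusted p = 0.0369), and this call held in 2 of the 11 fits. T, the Brachyury factor, was at 13.8 and 9.02 FPKM against 29.2, 39.2 and 58.4 FPKM (adjusted p = 0.179). The list's median was -1.06, as was that of 16 presomitic genes, of which none was past the threshold and 7 lay below all controls. With series as a covariate both medians were -0.25.

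Endodermal and epithelial genes had a list median of -2.66, the lowest of the tissue lists with more than 1 tested gene. Of 14 tested endoderm genes 5 fell and none rose, and 10 lay below all controls. Cldn6, Krt19 and Cdh1 encode a tight-junction protein, a keratin and E-cadherin and are shared by other epithelia, while Foxa2 and Sox17 are transcription factors of early endoderm. Cldn6 (ENSMUSG00000023906, chr17:23679249-23682446, plus strand) was at 0.767 and 0.538 FPKM in Del(CBS4) against 7.77 FPKM in replicate 4 and 54.4 and 6.82 FPKM in the time course. It fell by 4.27 (SE 0.76, adjusted p = 0.0300, limma). Krt19 was at 0.0510 and 0.0229 FPKM against 2.67, 9.74 and 1.06 FPKM and fell by 4.54 (SE 0.70, adjusted p = 0.0216). Time-course replicate 1 was the highest control for both genes, several times above the other controls, and the mutant libraries were far below all of them.

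Cdh1 was at 1.14 and 0.826 FPKM against 5.92, 13.8 and 3.52 FPKM and fell by 2.65 (SE 0.46, adjusted p = 0.0293). Foxa2 was at 0.0514 and 0.0510 FPKM against 0.665, 6.09 and 0.930 FPKM and fell by 3.49 (SE 0.73, adjusted p = 0.0483). Sox17 was listed at 0 and at 0.0179 FPKM against 0.605, 10.8 and 1.35 FPKM (adjusted p = 0.0486). The calls on Cldn6, Cdh1 and Foxa2 held in 3 of the 11 fits, those without a 120 h control, and were lost without any Del(CBS4) library or any 144 h control. That on Sox17 held in 2 fits, and that on Krt19 was lost without any of the 4 Del(CBS4) libraries. In none of these fits did the log2 difference of the 5 genes rise above -2.12. The summed level of the endoderm list was 18.0 and 17 FPKM in Del(CBS4) at 120 h against 87.9, 298 and 58.8 FPKM in the controls, and 136 and 170 FPKM at 144 h against 250, 229, 303 and 270 FPKM.

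Claudins and E-cadherin are known targets of Snail and Zeb repressors, which bind the E-box CAGGTG. The 250 bases before the RefSeq start of both claudins that fell are shown because each holds this E-box once, in capitals, read on either strand (GRCm38.p6). In Cldn6 (chr17:23679115-23679364, plus strand) it starts 93 bases before the RefSeq start, which lies downstream of the gene start given above, and in Cldn4 (chr5:134946935-134947184, minus strand) 14 bases before it.
Cldn6: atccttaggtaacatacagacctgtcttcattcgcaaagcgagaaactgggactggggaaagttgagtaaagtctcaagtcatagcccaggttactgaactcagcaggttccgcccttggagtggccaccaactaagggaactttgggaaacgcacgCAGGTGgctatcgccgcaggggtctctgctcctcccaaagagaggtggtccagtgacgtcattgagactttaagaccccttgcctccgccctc
Cldn4: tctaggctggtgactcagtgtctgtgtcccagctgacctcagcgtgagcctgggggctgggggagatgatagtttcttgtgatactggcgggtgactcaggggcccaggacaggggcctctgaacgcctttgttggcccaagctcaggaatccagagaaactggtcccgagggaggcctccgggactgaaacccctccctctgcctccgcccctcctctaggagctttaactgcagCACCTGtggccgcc
Such a match describes letters and not binding. The E-box was found in 17.2% of all 32851 promoters of this length in the RefSeq table, in 14.8% of those of all genes tested, in 17.8% of the 276 promoters of genes that fell and in 16.4% of the 61 promoters of genes that rose. By symbol 189 of the 263 and 47 of the 75 genes matched the table. Snai1, the Snail factor of the presomitic list, was at 4.03 and 2.47 FPKM in Del(CBS4) against 3.71, 12.5 and 15.2 FPKM, and the groups overlapped (adjusted p = 0.281).

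Cldn4, also a member of the surface ectoderm list, was at 0.588 and 0.314 FPKM against 10.9, 11.5 and 2.05 FPKM and fell by 3.61 (SE 0.66, adjusted p = 0.0329), a call that held in 2 of the 11 fits. Gpx2, an epithelial glutathione peroxidase, was listed at 0 and at 0.0719 FPKM against 2.13, 15.6 and 1.25 FPKM (adjusted p = 0.0356), and its call held in 3. Both genes were lower in both mutant libraries than in any control, and both were back within a factor of 2 of the control means at 144 h.

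No endothelial gene passed the test, although all 18 tested members had a negative difference at 120 h. Of them 15 lay below all controls, and the median was -2.40. Cd34, a surface protein of endothelial and blood progenitors, was listed at 0 in both mutant libraries and at 0.545, 6.67 and 0.640 FPKM in the controls (adjusted p = 0.0616). Pecam1, an adhesion molecule of vessels, was at 0.205 and 0.0843 FPKM against 0.867, 3.39 and 0.514 FPKM (adjusted p = 0.0761). Time-course replicate 1 had a summed endothelial level of 146 FPKM against 16.2 and 27.7 FPKM in the other controls and 16.2 FPKM in each Del(CBS4) library, so that the sum of the list, unlike its median, did not separate the genotypes. At 144 h all 18 differences were again negative, none was past the threshold, and the median was -0.97. Cardiac and lateral mesoderm genes had a median of -1.38 at 120 h and -1.77 at 144 h, with all 12 differences negative at both stages and none past the threshold. Pluripotency genes had a median of -1.97 at 120 h and 0.14 at 144 h, again with none past it.

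**Figure D3:**
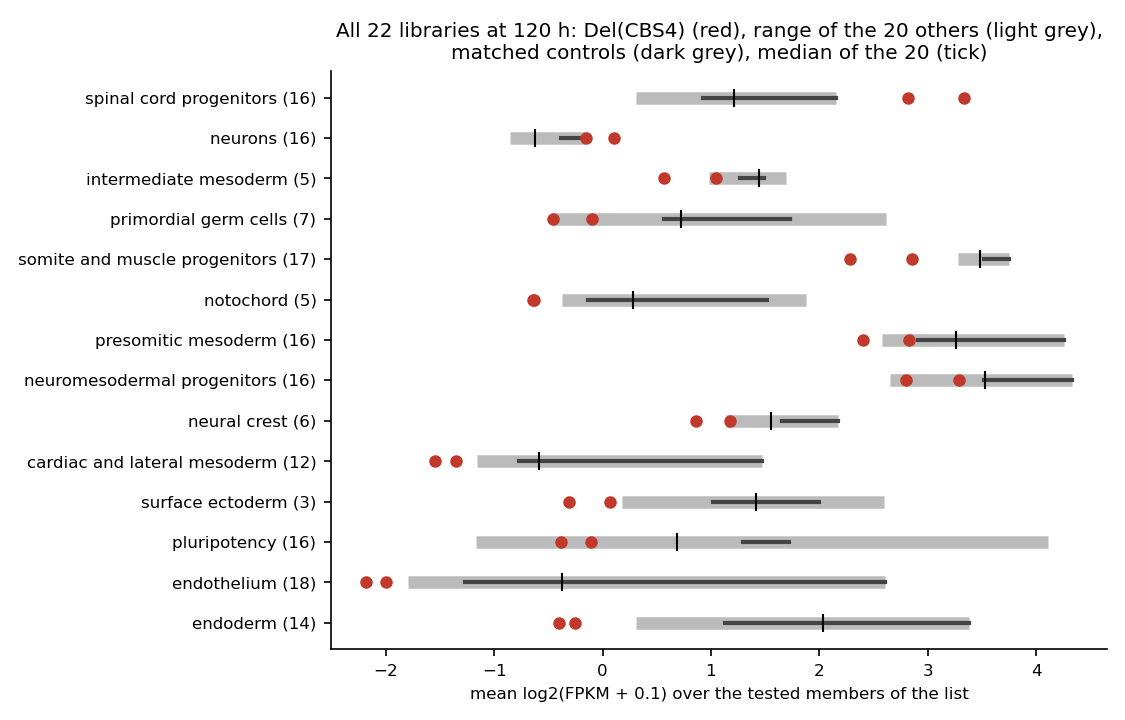
Mean log2(FPKM + 0.1) over each tissue list in all 22 libraries at 120 h, with both Del(CBS4) libraries as red points, the range of the other 20 libraries in light grey, the matched controls in dark grey and the median of the 20 as a tick. Both red points lie above all 20 for spinal cord genes (2.82 and 3.34) and below all 20 for somite genes (2.86 and 2.28) and endoderm genes (-0.25 and -0.40).

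The same lists were read in the other 20 libraries at 120 h, which hold all other genotypes and both library sets. The mean log2 level of the spinal cord list was 2.82 and 3.34 in Del(CBS4) and between 0.31 and 2.15 in the others. That of the somite list was 2.86 and 2.28 against 3.28 to 3.75, that of endoderm -0.25 and -0.40 against 0.31 to 3.38, and that of endothelium -2.0 and -2.18 against -1.80 to 2.61. Both Del(CBS4) libraries thus stood outside the range of all other 120 h libraries for these lists. They stood within it for neuromesodermal genes (3.29 and 2.80 against 2.65 to 4.33) and for pluripotency genes. These are descriptions over lists chosen with earlier results known, and no test was made of them.

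The other mutant line with low mt-Co2 and mt-Co3 at 120 h was Ins(2xCBS-d4d8), which carries an insertion of 2 CTCF sites between Hoxd4 and Hoxd8. Compared with it directly in a fit of 13 libraries, 109 of 12893 genes (0.845%) were past the threshold, 40 higher (0.310%) and 69 lower (0.535%) in Del(CBS4). Pax1 was at 12.2 and 9.12 FPKM in Ins(2xCBS-d4d8) and lower in Del(CBS4) by a log2 difference of -3.28 (SE 0.51, adjusted p = 0.0295, limma). Irx5 was at 1.64 and 2.74 FPKM there and higher in Del(CBS4) by 2.12 (SE 0.31, adjusted p = 0.0245). The other named tissue genes with values above 0 in Del(CBS4) did not pass this test, with adjusted p of 0.0622 for Irx3, 0.0803 for Krt19, 0.0746 for Eya1 and 0.106 for Cldn6. The call on Pax1 held in 1 and that on Irx5 in 2 of the 4 fits that leave out a mutant library.

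Signalling and matrix genes followed. Of 21 extracellular matrix genes 5 fell and none rose, and 15 lay below all controls, with a median of -0.67. Col4a1, a chain of basement membrane collagen, was at 29.7 and 20.4 FPKM against 53.4, 73.2 and 69.0 FPKM and fell by 1.39 (SE 0.18, adjusted p = 0.0117). Lamb1, a laminin chain, was at 26.4 and 19.5 FPKM against 40.8, 44.1 and 42.0 FPKM and fell by 0.90 (SE 0.12, adjusted p = 0.0141). Both were past the threshold in 10 of the 11 fits, and at 144 h both stood close to the controls. Col4a2 (-1.21), Lama1 (-0.54) and Col3a1 (-1.97) also fell, with calls that held in 4, 3 and 1 of the fits.

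Of 16 Wnt targets and feedback genes 2 fell, the feedback inhibitors Nkd2 (-1.36, adjusted p = 0.0263) and Dkk1 (-3.03, adjusted p = 0.0356). Of 9 retinoic acid genes 2 fell, Cyp26a1 among them. Of 16 BMP and TGF-beta genes 2 fell, the ligands Bmp5 (-1.36, adjusted p = 0.0130) and Bmp7 (-0.58, adjusted p = 0.0457). No gene of these 3 lists rose. In the FGF, Notch and Shh lists no gene was past the threshold, with medians of -0.44, -0.33 and -0.36. Single members of other lists fell, Ets1 of neural crest (-1.39), Lmo2 of blood (-2.84), Ndrg1 of the hypoxia list (-1.71) and the receptors Epha3 (-1.13) and Ephb3 (-0.66). Of the 11 fits with a library left out, the call on Bmp5 held in 10 and that on Ets1 in 8. Those on Nkd2, Ndrg1 and Epha3 held in 7, on Dkk1 and Ephb3 in 2 and on Bmp7 and Lmo2 in 1. Esco2, an acetyltransferase that acts on cohesin, rose by 0.41 (adjusted p = 0.0483, limma), a call that held in 1 of these fits. With upper-quartile scaling it did not pass (adjusted p = 0.0526, limma). The other 15 tested genes of the CTCF and cohesin list were not past the threshold. Cell cycle (22), cholesterol (21), p53 (18) and stress response genes (17) gave no call.

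Besides Irx5, Pax1, Grb10 and Dlk1, 10 further genes above 0 in all 11 libraries remained past the threshold with each library left out, and all of them fell. They were singled out after their values were seen. Wnt16, a Wnt ligand, was at 4.61 and 2.86 FPKM against 10.7, 12.5 and 12.2 FPKM (-1.66, SE 0.19, adjusted p = 0.00773). S1pr3, a receptor for sphingosine-1-phosphate, was at 4.79 and 2.72 FPKM against 15.8, 20.2 and 14.9 FPKM (-2.19, SE 0.22, adjusted p = 0.00690). Ntm, a cell adhesion protein of neurons, was at 1.94 and 1.83 FPKM against 9.20, 10.2 and 6.52 FPKM (-2.11, SE 0.19, adjusted p = 0.00344). Control libraries of both series were above the mutant for all of them. The others were Bhlhe40 (-1.91), Il1rap (-1.26), Kirrel3 (-1.80), Itih5 (-1.76), Adam19 (-1.52), Asap3 (-1.09) and Tpm2 (-0.71), the last with the smallest spread, at 16.1 and 18.3 FPKM against 28.2, 27.6 and 28.6 FPKM.

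**Figure D4:**
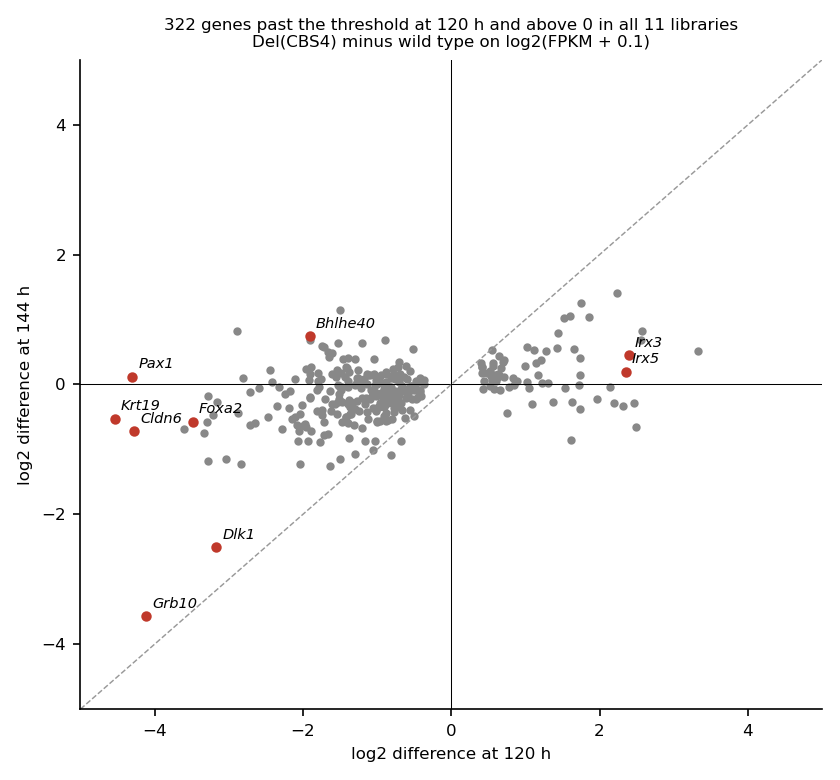
Log2 difference between Del(CBS4) and wild type at 120 h (x axis) and 144 h (y axis) for the 322 genes past the threshold at 120 h and above 0 in all 11 libraries, with a dashed line where both are equal. Most genes lie near 0 on the y axis, while Grb10 (-4.12 and -3.57) and Dlk1 (-3.17 and -2.50) lie near the dashed line.

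At 144 h the differences seen at 120 h were small. Over the 338 genes the median absolute log2 difference was 1.23 at 120 h, where the genes were chosen, and 0.262 at 144 h, and 239 had the same sign at both stages. Of the 75 genes that rose the median at 144 h was 0.152, and of the 263 that fell it was -0.181. The change of the difference between stages was tested in the same fit, and 18 genes (0.142%) passed. At an unadjusted p under 0.05 it had moved up for 5.63% of the genes tested and down for 2.78%. Of the 18 genes past the threshold, 9 were above 0 in all 11 libraries. Bhlhe40, a helix-loop-helix repressor, was at 0.293 and 0.417 FPKM in the mutant at 120 h against 1.71, 1.23 and 1.91 FPKM, and at 3.15 and 3.64 FPKM at 144 h against 1.80, 1.81, 2.07 and 2.25 FPKM. It thus went from below all controls to above all of them, and the difference changed by 2.66 (SE 0.27, adjusted p = 0.00894, limma). The other 8 were Il1rap (1.48), Insrr (2.65), Ntm (2.2), Wnt16 (2.16), Lifr (2.10), Dock5 (1.57), Rgmb (1.07) and Scg3 (-2.46), and only Bhlhe40 and Il1rap remained with each library left out. For Pax1 (4.42, adjusted p = 0.0603) and Irx5 (-2.15, adjusted p = 0.0770) the change between stages did not pass, so that their differences at 120 h and 144 h were not shown to differ.

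Imprinted genes are expressed from one parental copy, and many of them govern growth of the embryo. Of 29 tested genes of this list 3 fell at 120 h, Grb10, Dlk1 and Airn, and 3 at 144 h, Grb10, Dlk1 and Cdkn1c. None rose at either stage. Grb10 (ENSMUSG00000020176, chr11:11930508-12038683, minus strand), an adaptor that restrains insulin and growth factor receptors, was at 2.25 and 1.81 FPKM in Del(CBS4) at 120 h and 67.0, 35.5 and 20.9 FPKM in the controls. At 144 h it was at 2.37 and 2.52 FPKM against 26.0, 27.3, 34.6 and 33.7 FPKM. The 4 mutant libraries were within a narrow range and far below all 7 controls. Grb10 fell by 4.12 (SE 0.40, adjusted p = 0.00578) at 120 h and by 3.57 (SE 0.38, adjusted p = 0.0195) at 144 h, where the call was lost without either Del(CBS4)_144h library or any of the 4 controls of that stage, with adjusted p up to 0.0917 and log2 differences between -3.64 and -3.51.

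Dlk1 (ENSMUSG00000040856, chr12:109452849-109463336, plus strand), a membrane protein related to Notch ligands, was at 2.77 and 1.51 FPKM against 23.5, 24.7 and 12.3 FPKM at 120 h. At 144 h it was at 6.01 and 6.59 FPKM against 37.7, 30.8, 36.8 and 39.7 FPKM. The groups did not overlap at either stage, with log2 differences of -3.17 (SE 0.33, adjusted p = 0.00690) and -2.50 (SE 0.31, adjusted p = 0.0488). The call at 144 h held in 4 of the 11 fits, those without a Del(CBS4)_120h or a time-course library at 120 h. Cdkn1c, an inhibitor of the cell cycle, was at 4.83 and 4.70 FPKM against 19.6, 17.6, 25.9 and 29.5 FPKM at 144 h (-2.23, SE 0.25, adjusted p = 0.0259, in 4 of the 11 fits) and at 7.11 and 8.48 FPKM against 20.2, 13.2 and 12.5 FPKM at 120 h (-0.94, adjusted p = 0.103). Zim1, a zinc finger gene, was at 0.0282 and 0.101 FPKM against 1.81, 1.89, 0.763 and 0.635 FPKM at 144 h (-2.96, adjusted p = 0.110). Airn, the antisense RNA of the Igf2r locus, was at 4.30 and 2.87 FPKM against 11.8, 8.86 and 9.38 FPKM at 120 h (-1.47, adjusted p = 0.0322) and overlapped the controls at 144 h. The libraries are stranded, but Cufflinks was run with default parameters, which treat libraries as unstranded, and reads of Airn and of Igf2r on the other strand may not have been separated.

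One of 2 RefSeq promoters of Grb10, at chr11:12037421-12037670 (minus strand), and that of Dlk1 at chr12:109452573-109452822 (plus strand, both GRCm38.p6) are shown because these genes differed at both stages, with CG dinucleotides, where DNA methylation can occur, in capitals. The Grb10 promoter shown holds 40 of them, a number reached by 1.31% of the promoters of the table. The other RefSeq promoter of Grb10 (chr11:12027972-12028221) holds 8, as does that of Dlk1, a number reached by 43.0%.
Grb10: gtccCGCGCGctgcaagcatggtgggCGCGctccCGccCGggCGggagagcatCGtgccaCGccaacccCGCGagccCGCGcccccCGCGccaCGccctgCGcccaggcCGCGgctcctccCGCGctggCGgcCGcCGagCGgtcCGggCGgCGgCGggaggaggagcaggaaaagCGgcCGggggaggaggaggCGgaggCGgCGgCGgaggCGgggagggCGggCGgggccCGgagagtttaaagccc
Dlk1: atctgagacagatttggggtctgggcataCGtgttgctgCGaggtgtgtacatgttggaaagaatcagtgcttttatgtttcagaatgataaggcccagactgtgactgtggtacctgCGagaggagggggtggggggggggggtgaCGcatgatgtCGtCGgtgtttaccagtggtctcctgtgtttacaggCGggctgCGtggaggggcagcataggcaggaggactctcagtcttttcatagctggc
Methylation was not among the measurements.

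**Figure D5:**
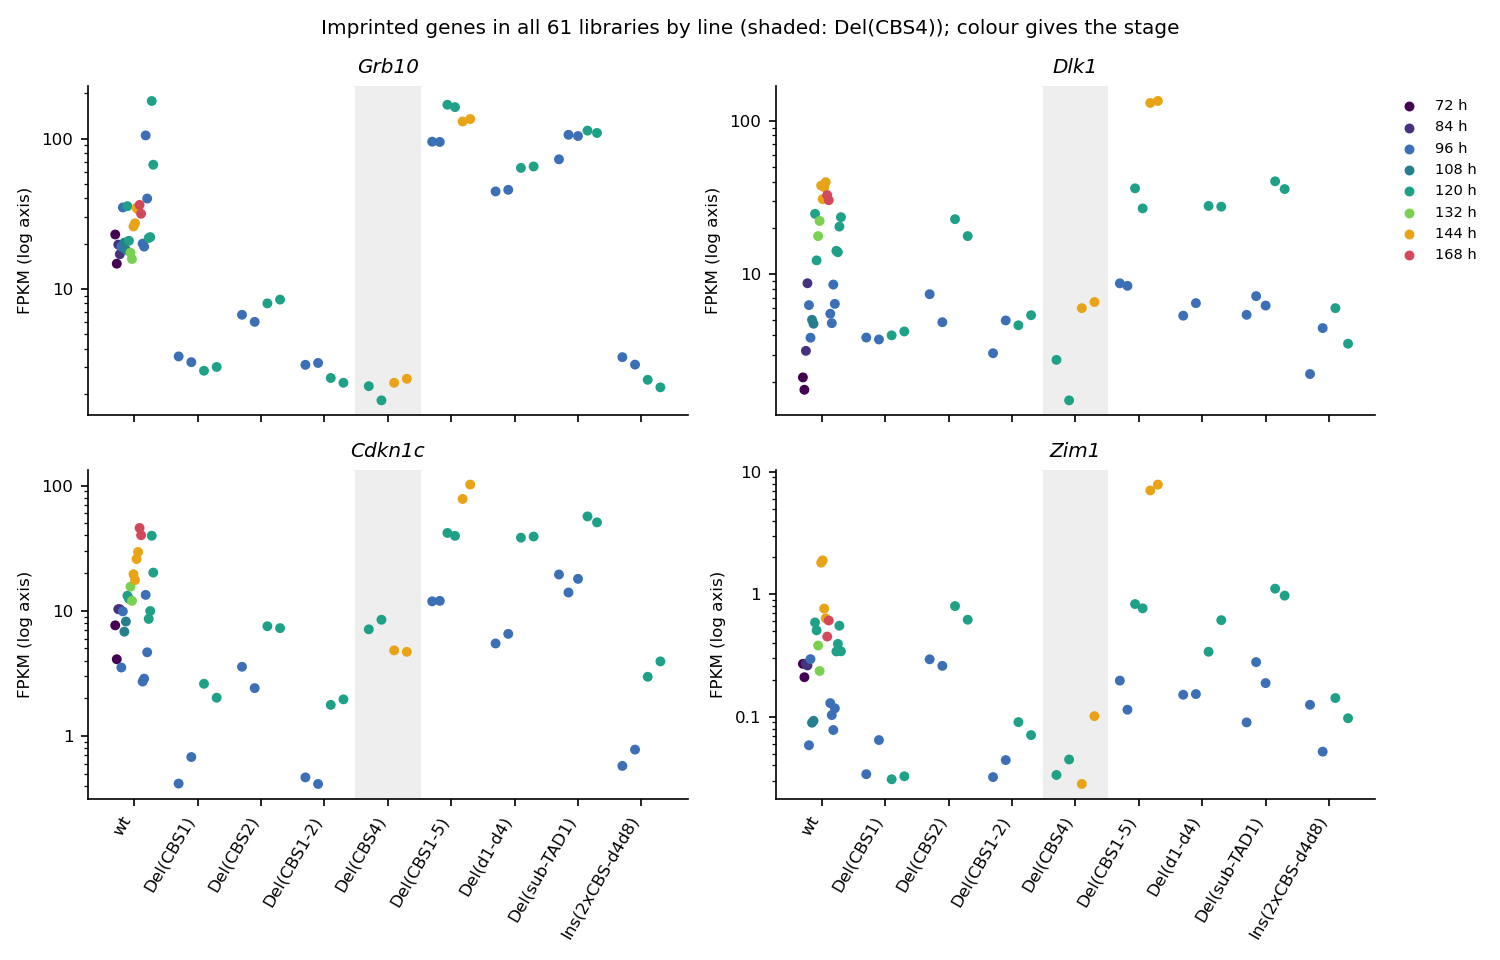
FPKM of Grb10, Dlk1, Cdkn1c and Zim1 in all 61 libraries on log axes, grouped by line and coloured by stage, with Del(CBS4) shaded. Grb10 was at 1.81 to 2.52 FPKM in Del(CBS4), under 10 FPKM in 4 other mutant lines and at 14.7 to 178 FPKM in the wild type.

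Low Grb10 was also found in other mutant lines. Over all stages it was at 1.81 to 2.52 FPKM in the 4 Del(CBS4) libraries, 2.21 to 3.51 FPKM in Ins(2xCBS-d4d8), 2.85 to 3.55 FPKM in Del(CBS1), 2.37 to 3.21 FPKM in Del(CBS1-2) and 6.03 to 8.48 FPKM in Del(CBS2). In the other lines it was at 44.5 to 65.2 FPKM in Del(d1-d4), 72.8 to 113 FPKM in Del(sub-TAD1) and 95 to 168 FPKM in Del(CBS1-5). The origin of the lines differs too. Del(CBS1-2) was made from Del(CBS1), so that these are not independent lines, and Del(CBS1-5) and Del(sub-TAD1) were derived from mouse blastocysts and not by editing the 129/SVEV cells. Del(d1-d4), with Grb10 at 44.5 to 65.2 FPKM, was made by editing embryonic stem cells, as were the lines with low Grb10. Effects of origin, clone and deletion cannot be told apart in these levels. Grb10 did not differ detectably between Del(CBS4) and Ins(2xCBS-d4d8) at 120 h (-0.21, SE 0.42, adjusted p = 0.901). At 120 h Dlk1 was at 4 and 4.24 FPKM in Del(CBS1), 4.65 and 5.41 FPKM in Del(CBS1-2) and 6.01 and 3.53 FPKM in Ins(2xCBS-d4d8). It was at 22.8 and 17.7 FPKM in Del(CBS2), 27.8 and 27.5 FPKM in Del(d1-d4), 36.2 and 26.8 FPKM in Del(CBS1-5) and 40.2 and 35.8 FPKM in Del(sub-TAD1). The wild type had 12.3 to 24.7 FPKM at that stage. The log2 difference of Dlk1 between Del(CBS4) and Ins(2xCBS-d4d8) at 120 h was -1.13 (adjusted p = 0.223, limma). Zim1 was under 0.15 FPKM in every library of Del(CBS1), Del(CBS1-2), Del(CBS4) and Ins(2xCBS-d4d8). In the wild type it was at 0.0584 to 0.295 FPKM at 96 h and at 0.341 to 0.588 FPKM at 120 h. Wild-type libraries at 96 h thus also reached below 0.15 FPKM, and those at 120 h did not.

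Within the HoxD cluster no gene was past the threshold at either stage, and the 8 tested genes had medians of -0.46 at 120 h and 0.23 at 144 h. The study reports changes of single Hoxd genes in this line, on FPKM normalized with genes of other Hox clusters against differences in growth speed. That normalization was not applied here, so these values are not a test of its result. Hoxd4 was at 27.0 and 27.8 FPKM in Del(CBS4) at 120 h against 20.6, 14.2 and 26.7 FPKM, Hoxd8 at 9.58 and 9.51 FPKM against 6.74, 6.05 and 20.1 FPKM, and Hoxd9 at 7.0 and 4.93 FPKM against 4.93, 8.40 and 24.1 FPKM. Time-course replicate 2 was the highest control for Hoxd8 and Hoxd9, and the mutant lay within the range of the controls for both. Of 14 tested genes flanking the cluster none was past the threshold at 120 h (median -0.02). Over the 20 chromosomes the median difference lay between -0.06 and 0.01 at 120 h.

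Some of the smallest p-values belong to genes that jump between a level listed at 0 and a steady one. Rad9a, a DNA damage checkpoint gene, was at 26.7, 26.8, 27.4 and 26.4 FPKM in the 4 Del(CBS4) libraries and listed at 0 in all 7 controls. Over all lines it was listed at 0 or at about this level, at 0 in all libraries of Del(CBS1-5) and Del(sub-TAD1) and between 26.2 and 29.6 FPKM in Ins(2xCBS-d4d8). Such values that are either 0 or steady in any line are listed values. Over the 11 libraries 6 genes had an estimate marked as failed. An estimate that is wrong without such a mark cannot be told apart from a silent gene. Ncoa3 was at 7.77 and 7.81 FPKM in Del(CBS4) at 120 h and listed at 0 in the other 9 libraries, those of the mutant at 144 h included. Ubxn6, Tor1aip1 and Tbc1d17 were listed at 0 in both mutant libraries at 120 h and at 7.01 to 16.2 FPKM in the controls, and Traf3ip2 likewise at 1.62 to 2.11 FPKM. At 144 h Pip4p1 and Hotairm1 were listed at 0 in every library but the mutant ones, at 38.6 and 42.5 FPKM and at 12.7 and 13.4 FPKM, and Txnrd2 was listed at 0 in the mutant alone. No fold is given for these genes. Of the 8 genes past the threshold at 144 h, 5 were listed at 0 in all libraries of one genotype, and the other 3 were Grb10, Dlk1 and Cdkn1c. Genes listed at 0 in at least 1 library made up 738 of the 12714 tested and 16 of the 338 past the threshold at 120 h.

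The stage of each library was estimated from the wild-type time course over 1000 genes outside the Hox clusters. Time-course controls were scored against a reference without the libraries of their own stage, and all other libraries against the full time course. Ages within a group comparison thus come from unlike references. The Del(CBS4) libraries at 120 h matched 114 h and 128 h and their controls 121 h, 122 h and 126 h. The mean difference was -2 h and did not pass an exact permutation test (two-sided p = 0.9, 2 against 3 libraries, which cannot go below 0.1). At 144 h the mutant matched 136 h and 127 h and the controls 150 h, 148 h, 157 h and 158 h, so that both mutant libraries were the younger ones. This difference of -21.8 h had an exact p of 0.0667, the smallest that 2 against 4 libraries can give, and it shrank to -5.75 h with a reference without the 120 h and 144 h libraries, an alternative chosen after seeing the data. In the time course itself, 69.2% of the 263 genes that fell were higher at 132 h than at 108 h, against 58.5% of all genes tested, and 62.7% of the 75 that rose. Between 132 h and 168 h 78.7% of the genes that rose and 40.3% of those that fell went up, against 48.4% of all genes. The part of stage in the differences was not tested.

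Mitochondrial RNA and depth also moved with genotype at 120 h. Mitochondrially encoded mRNAs were higher in Del(CBS4), with a mean log2 level of 7.73 and 7.77 against 6.78 to 7.33 in the controls, 8 of 10 genes above all controls and none past the threshold. At 144 h none of the 10 lay outside the controls. The depth of the mutant libraries at 120 h was also above that of every control. The part of either measure in the differences was not tested.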

How the data were processed

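RNA of pooled stembryos was sequenced as stranded, poly-A selected, paired reads of 75 bases. Per the study's methods the authors trimmed reads with cutadapt 1.16, aligned them to mm10 with STAR 2.7.7a and, from uniquely mapped reads and a gene annotation based on Ensembl 102, computed FPKM per gene with Cufflinks 2.2.1. The deposited FPKM table has 55052 genes and 61 libraries. Here 25 repeated identifiers were summed. Genes with a mean of at least 1 FPKM in a group were kept (12714), and log2(FPKM + 0.1) was fitted for 11 libraries in 4 groups with limma 3.58.1 (R 4.3.3), with p-values adjusted by Benjamini-Hochberg over all genes tested and a threshold of 0.05. The pseudocount understates changes of genes with low values. The scripts were tested on simulated data. Depth is inferred and covers counting only. The members, gene lists and tests were chosen with earlier results of these data known. Named are the 12 largest rises and falls past the threshold whose groups do not overlap, up to 4 members of each list by p, and the Hoxd genes in short, a few of which are not reported here, and genes outside this rule are said to be chosen after their values were seen. Alternatives were other filters, pseudocounts, scalings, control sets, a series covariate, a replicate block and leaving out each library. Figures were drawn with matplotlib 3.10.9 in Python 3.11.15.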

Additional observations from a re-analysis of the deposited data

Results flagged for a closer look

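In 2 of 79 genes with a group of 4 libraries tested, 1 library stood apart from the others of its group, and chance flags about 1 in 20 such groups. Both times it was wild-type time-course replicate 1 at 144 h. Irx3 was at 18.6 FPKM there and at 21.7 to 22.1 FPKM in the other 3 controls, and Wnt4 was at 2.80 FPKM there and at 2.07 to 2.11 FPKM in the others.

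The difference between Del(CBS4) and wild type itself changed between 120 h and 144 h for 6 named genes, by a test of the change in the same limma fit with Benjamini-Hochberg adjustment. It changed by 2.66 on the log2 scale for Bhlhe40 (adjusted p = 0.00894), by 2.65 for Insrr (0.0258), by 2.2 for Ntm (0.0196), by 2.16 for Wnt16 (0.0196), by 2.10 for Lifr (0.0196) and by -2.46 for Scg3 (0.0451). For Scg3, a granin of secretory vesicles, the mutant was above all controls at 120 h, while the other 5 genes were below all of them. Insrr, Lifr and Scg3 were named after they had passed this same test. With each library left out in turn, the call on Bhlhe40 held in all 11 fits. Those on Lifr held in 8, on Ntm and Wnt16 in 7, on Insrr in 6 and on Scg3 in 3.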

How the results depend on the processing

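At 120 h, 338 genes were past the threshold. Controls outside the time course are at this stage wild-type replicate 4 alone. Without the filter on low values there were 176, with all 61 libraries in the fit 1829, with controls outside the time course only 3599, with time-course controls only 1501, with series as a covariate 827 and with all wild-type libraries of the stage 582. The share of lower genes was 77.8%, 49.7% with all wild-type libraries, 56.3% with controls outside the time course and 46.5% without Del(CBS4)_120h replicate 2. Leaving out 1 library gave 43 to 627 genes, with 43 without Del(CBS4)_120h replicate 2, 154 without replicate 1, 90 without either Del(CBS4)_144h library, 183, 211, 208 and 172 without wild-type replicates 1 and 2 and time-course replicates 1 and 2 at 144 h, and 627 and 539 without replicate 4 and time-course replicate 2 at 120 h. At 144 h, 8 genes became 35 without the filter, 482 with all 61 libraries, 1096 and 2884 with controls outside the time course and time-course controls only, 27 with the series covariate, 2 without genes listed at 0, and 5 to 32 with a library left out. For the change between stages, 18 genes became 45 without the filter, 391 with all 61 libraries, 1284 and 802 with either control set, 37 with the series covariate, 37 with all wild-type libraries, 9 without genes listed at 0, and 13 to 69. Against Ins(2xCBS-d4d8), 109 became 71 without the filter and 35 to 93 without a mutant library. The cause of these shifts was not tested. Of 2025 values of single genes under an alternative 1518 kept their direction and their side of the threshold, 444 lost the call and 52 gained it. The other 11 were values not past the threshold that changed sign, such as Hoxd4 (0.46 to -1.14), Hoxd10 (-1.66 to 0.57) and Tnnt2 (-3.38 to 0.05) with the replicate block and Hoxd9 (-0.76 to 0.25) with controls outside the time course. None of these values that was past the threshold changed sign.

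Deviations of same-numbered libraries correlated at -0.0694 to 0.0419, so that no strong pairing by replicate number was seen. The labels do not say whether same-numbered libraries were prepared together. With a replicate block 704 genes were past the threshold at 120 h, 70 of them among the 338, 23 at 144 h and 84 for the change between stages. The median of neuromesodermal genes at 120 h was then 0.91 and that of presomitic genes 0.15, in place of -1.06 for both.

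The estimated age difference at 120 h was 3.83 h with a pseudocount of 1. At 144 h it was -10.8 h over 200 genes, -15.2 h over 5000, -15.5 h with a pseudocount of 1 and -5.75 h with the reference without the 120 h and 144 h libraries. Depth limits what genes under about 0.1 FPKM can show.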
